A study of Macaca mulatta with 20 samples.

Results

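The MHC class II antigen presentation genes were followed in the blood of irradiated rhesus macaques. They are the 10 genes HLA-DRA, HLA-DRB1, HLA-DPA1, HLA-DPB1, HLA-DQA1, HLA-DMA, HLA-DMB, HLA-DOA, CD74 and CIITA. A probe was taken when the array annotation gave it one of these names and its spot was well above background on at least 5 of 20 arrays. All 19 probes of the 10 genes met this rule, of 19961 probes that met it among the 34127 on the array. HLA-DPB1 had 5 probes, HLA-DPA1, HLA-DQA1, HLA-DMA, HLA-DOA and CIITA had 2 each, and HLA-DRA, HLA-DRB1, HLA-DMB and CD74 had 1 each.

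Whole blood RNA of Macaca mulatta, depleted of globin transcripts, was hybridized in 1 color to human Agilent arrays of 60-base probes. The animals, males of Chinese origin, received 10 Gy of X-rays to the thorax (whole thorax lung irradiation) and no mitigating drug. The pre-irradiation group and days 2, 5 and 30 after irradiation hold 5 arrays each, and the labels give no strain, genotype or age. The labels name 8 animals and do not say which of them each array holds, nor which array holds the RNA that the study's methods describe as pooled from a pair of animals. Levels below are log2 processed signals minus the 75th percentile of the array. They are compared between arrays for 1 probe and not between probes. The probes are human, and a difference between animals in the sequence under a probe cannot be told apart here from a difference in level.

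MHC class II molecules are pairs of an alpha and a beta chain that hold peptides from the endosome on the surface of B cells, monocytes and dendritic cells and show them to CD4 T cells. The invariant chain, CD74, occupies the groove while the pair travels to the endosome. HLA-DM then removes the last piece of CD74 and helps peptides in, HLA-DO restrains HLA-DM, and the coactivator CIITA switches on the whole set of genes. The classical chains are among the most variable genes between individuals of a primate species.

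The 5 probes of HLA-DPB1 differed from each other in the results that follow, and the 3 that lie in its coding sequence are shown so that they can be told apart, in the sense direction of the human transcript and with no base singled out. On hg19 they lie on the plus strand at chr6:33048489-33048537, chr6:33052784-33052843 and chr6:33052981-33053587, where the last spans an intron. The first comes from the peptide-binding domain and the second from the membrane-proximal domain.
HLA-DPB1 A_33_P3271635: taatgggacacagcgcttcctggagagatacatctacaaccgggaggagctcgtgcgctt
HLA-DPB1 A_33_P3271651: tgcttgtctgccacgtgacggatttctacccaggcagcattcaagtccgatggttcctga
HLA-DPB1 A_24_P166443: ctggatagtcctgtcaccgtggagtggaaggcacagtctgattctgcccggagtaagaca

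The other probes of HLA-DPB1 are A_33_P3271634 at chr6:33048209-33048268 and A_23_P258769, downstream of the rest, at chr6:33054359-33054418. Beta chain genes resemble each other, and the probe of HLA-DRB1 (chr6:32548524-32548583, minus strand) had 45 of 60 bases in common with 1 of the 4 probes of HLA-DQB1, the beta chain that pairs with HLA-DQA1. Capitals mark the identical bases.
HLA-DRB1: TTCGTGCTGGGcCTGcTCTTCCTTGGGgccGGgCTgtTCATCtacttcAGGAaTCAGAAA
HLA-DQB1: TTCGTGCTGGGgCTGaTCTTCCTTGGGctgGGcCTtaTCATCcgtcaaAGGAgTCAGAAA

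Arrays were paired by replicate number, as the study's comparisons were paired by animal. The number did not always follow the class II levels. A_23_P258769 of HLA-DPB1 separated the arrays most among the members, and 17 of 20 of its spots were well above background. Those of replicate 2 before irradiation and at days 2 and 5 were not, so their values are only bounds. In replicates 1 to 5 its level was 6.46, -5.09, 7.21, -3.25 and 4.38 before irradiation. At day 2 it was 6.30, -4.83, 5.15, -3.66 and 6.06. At day 5 it was 6.28, -5.45, 6.86, 5.59 and 5.80, and at day 30 it was 6.27, -3.53, 7.04, 6.69 and 6.79. Replicate 1 was high at every time and replicate 2 low at every time, while replicate 4 was low on the first pair of arrays and high on the last pair.

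HLA-DRB5, a second DR beta chain, and HLA-DQA2, a second DQ alpha chain, also separated arrays within a number. The level of HLA-DRB5 was between 5.13 and 5.45 in replicate 1 and between 3.08 and 3.35 in replicate 2. In replicate 3 it was 5.67, 3.44, 5.24 and 5.29 in time order, so that its day 2 array stood apart. A_23_P30900 of HLA-DQA2 was 5.29, 4.62, -0.04 and 3.46 in replicate 4. Over all probes, deviations from the group mean correlated between arrays of 1 number by -0.16 to 0.65, and 16 of 20 arrays were most alike to an array of their own number. For numbers 1 and 2 the lowest of these correlations was 0.18 and 0.34, and for numbers 3, 4 and 5 it was -0.16, 0.07 and 0.04. Counts and medians of the members against pre-irradiation are therefore also given without replicates 3, 4 and 5.

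**Figure D1:**
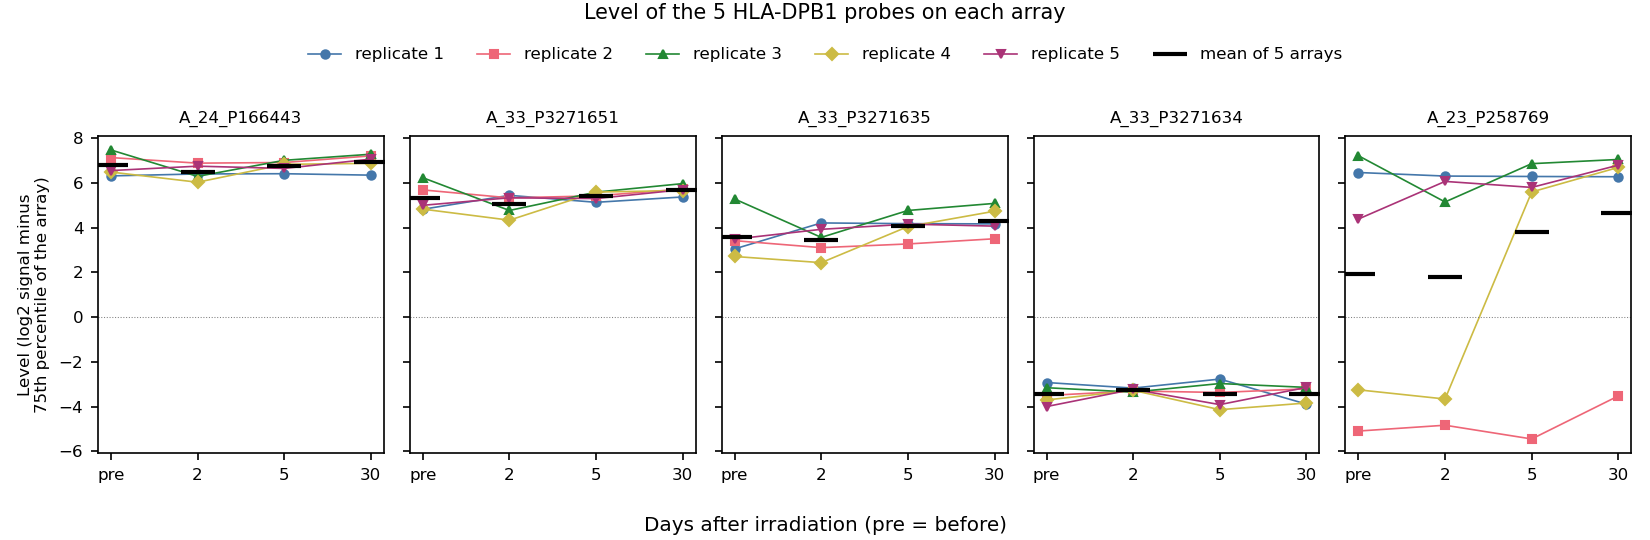
Level (log2 signal minus the 75th percentile of the array, vertical axis) of the 5 HLA-DPB1 probes before irradiation and at days 2, 5 and 30 (horizontal axis). Lines join arrays of 1 replicate number and black bars are means of 5 arrays. For A_23_P258769 replicate 2 lies below 0 at every time, and replicate 4 moves from -3.66 at day 2 to 5.59 at day 5.

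No member probe was called at any day. limma called 0 of 19 at day 2, where it called 0.0601% of all probes tested, and 0 of 19 at days 5 and 30, where it called 0% of all probes. A probe was called when its p-value was below 0.005 and its false discovery rate, by Benjamini and Hochberg, below 10%. Before adjustment, 2 member probes at day 2, 4 at day 5 and 2 at day 30 had a p-value under 0.05. Paired tests without limma's pooling over probes called 0 members as well, beside 0, 1 and 1 of all 19961 probes at days 2, 5 and 30. The lowest adjusted p-value of a member was 0.258 at day 2, 0.322 at day 5 and 0.279 at day 30.

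At day 2 the mean change was below 0 for 18 of the 19 probes, against 55.1% of all probes. The median over the member probes of the mean change was -0.31 on the log2 scale, beside -0.04 for all probes. The members' median by pair was -0.01, -0.25, -1.19, -0.32 and 0.15 in replicates 1 to 5 (mean -0.33, SD 0.52). Replicate 3, whose day 2 array stood apart above, had the lowest value, and without it the median change was -0.13. Without replicates 3, 4 and 5 it was -0.02, with 11 of 19 probes below 0. In that fit 9696 of all 19957 probes were above 0. The 2 probes with an unadjusted p-value under 0.05, of HLA-DOA and HLA-DQA1, were both lower, where 6.55% of all probes were lower at this level. Probes of HLA-DQA1 (A_33_P3293049), HLA-DOA (A_32_P356316) and CIITA (A_32_P209960) were lower in all 5 pairs, 3 of 19, against 8.19% of all probes.

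At day 5 the median change of the members was -0.08, beside 0.03 for all probes. Their medians by pair had a mean of -0.16 and an SD of 0.34. Of the 19 probes, 13 were below 0 against 45.3% of all. Of these, 4 had an unadjusted p-value under 0.05, all lower, where 3.82% of all probes did. They were both probes of HLA-DQA1, 1 of HLA-DPA1 and 1 of CIITA. Lower in all 5 pairs were 2 of 19, against 5.86% of all probes. At day 30 the median was -0.17, beside -0.02 for all probes, and the medians by pair had a mean of -0.11 and an SD of 0.19. Again 13 of 19 were below 0, where 52.6% of all probes were. Here 1 probe of HLA-DOA was lower and 1 of HLA-DPB1 higher at an unadjusted p-value under 0.05, beside 10.1% and 7.43% of all probes. Lower in all 5 pairs were 3 of 19, against 10.5% of all probes. Without replicates 3, 4 and 5 the median was -0.09 at day 5 and -0.03 at day 30, with 12 and 10 of 19 probes below 0. In these fits 10863 of all 19958 probes and 9151 of all 19957 were above 0. At an unadjusted limma p-value under 0.05, 3 and 1 members were lower, beside 573 and 796 of all probes.

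**Figure D2:**
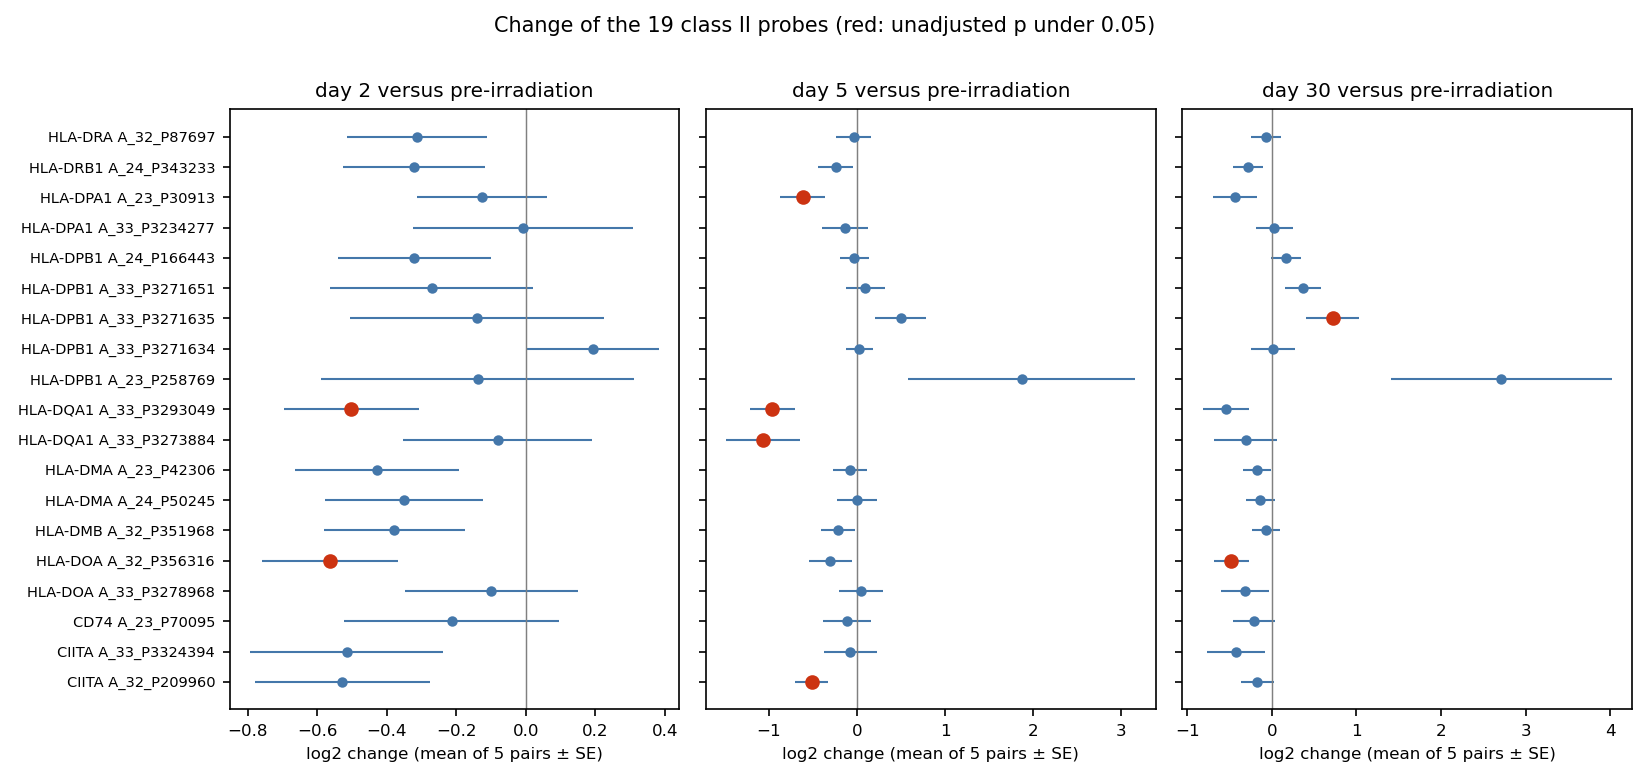
Mean log2 change ± SE over 5 pairs (horizontal axis) of the 19 member probes (rows) at each day against pre-irradiation. Red points have an unadjusted p-value under 0.05, 2 at day 2, 4 at day 5 and 2 at day 30. At day 2 the only probe above 0 is A_33_P3271634 of HLA-DPB1, at 0.19.

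The classical chains come first. HLA-DRA, the alpha chain of the DR pair, lies at chr6:32412448-32412507. Its level in replicates 1 to 5 was 5.22, 6.40, 6.47, 5.76 and 5.75 before irradiation and 5.29, 6.03, 5.40, 5.43 and 5.88 at day 2. It was 5.05, 6.05, 6.03, 5.77 and 6.51 at day 5 and 5.52, 6.27, 6.61, 5.43 and 5.44 at day 30. The groups overlapped at every time, and replicates 2 and 3 were the highest of the pre-irradiation arrays. Mean changes were -0.31 (SE 0.20) at day 2, -0.04 (SE 0.20) at day 5 and -0.07 (SE 0.18) at day 30, with adjusted p-values from limma of 0.490, 0.961 and 0.876.

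HLA-DRB1, the main DR beta chain, was read by 10 spots on each array. Its level was 6.35, 6.59, 7.55, 7.09 and 6.66 before irradiation and 6.34, 6.46, 6.51, 6.50 and 6.81 at day 2. Later it was between 6.26 and 7.11 at day 5 and between 6.20 and 7.03 at day 30. Replicates 3 and 4 stood highest before irradiation, and the day 2 arrays lay close together (SD 0.18, against 0.47 before irradiation). At day 30 it was lower in 5 of 5 pairs, by 0.05 to 0.59, with a mean change of -0.28 (SE 0.17, adjusted p = 0.431 from limma).

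The DP pair gave the widest disagreement between probes of 1 gene. The probes A_24_P166443, A_33_P3271651 and A_33_P3271635 of HLA-DPB1, printed above, varied together over the arrays once each replicate number was centered on its own mean (correlations of 0.82 to 0.95 over 20 arrays, which share animals and scaling). Their mean changes at day 30 were 0.16 (SE 0.18), 0.37 (SE 0.21) and 0.72 (SE 0.31), and the last had an unadjusted p-value of 0.048 and an adjusted p-value of 0.281 from limma. The pair of replicate 4 was the highest for A_33_P3271651 and A_33_P3271635, at 0.83 and 2.02, and replicate 3 was below 0 for all 3 probes.

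For A_23_P258769 of HLA-DPB1 the mean change was -0.14 (SE 0.45) at day 2, 1.87 (SE 1.29) at day 5 and 2.71 (SE 1.30) at day 30. The pair of replicate 4 contributed changes of 8.84 and 9.94 at days 5 and 30. Without replicate 4 the mean change was 0.13 at day 5 and 0.91 at day 30, with adjusted p-values from limma of 0.903 and 0.369. The value at day 30 includes a change of 1.57 in replicate 2, from a spot that was not well above background before irradiation. A_33_P3271634 stayed near background, between -4.14 and -2.77 on all arrays, and 18 of 20 of its spots were well above it. Its changes lay between 0.01 and 0.19.

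HLA-DPA1, the alpha partner of HLA-DPB1, had its probes at chr6:33032848-33032907 and chr6:33036886-33036945, both on the minus strand. A_23_P30913 had levels of 5.79 to 6.53 before irradiation, 5.19 to 6.38 at day 2, 4.87 to 6.09 at day 5 and 4.90 to 5.93 at day 30. Its mean change was -0.62 (SE 0.25) at day 5 and -0.43 (SE 0.26) at day 30, and replicate 4 contributed -1.66 and -1.63. Without replicate 4 the changes were -0.36 and -0.14. The other probe, A_33_P3234277, had mean changes of -0.01, -0.14 and 0.03 at days 2, 5 and 30, so that the values at day 30 differed in sign between the probes.

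HLA-DQA1, the DQ alpha chain, had the lowest mean changes of the members at day 5. The level of A_33_P3293049 (chr6:32610501-32610560) was 4.42, 5.69, 4.48, 5.56 and 4.66 before irradiation. At day 2 it was 4.35, 5.24, 3.27, 5.00 and 4.45. At day 5 it was 3.95, 5.24, 3.83, 4.41 and 2.58, and at day 30 it was 3.83, 5.41, 4.02, 3.87 and 5.00. Every array of days 2 and 5 was below the pre-irradiation array of its number, although the groups overlapped, and replicate 2 stayed above 5 throughout.

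The mean change of this HLA-DQA1 probe was -0.50 (SE 0.19) at day 2, -0.96 (SE 0.26) at day 5 and -0.54 (SE 0.27) at day 30. The adjusted p-values from limma were 0.295, 0.322 and 0.344. Without replicates 3, 4 and 5 the change at day 5 was -0.46. The second probe, A_33_P3273884, was lower at day 5 in 4 of 5 pairs with a mean change of -1.06 (SE 0.42), and replicates 4 and 5 contributed -2.33 and -2.36. At day 2 its mean change was -0.08, with replicate 1 higher by 1.17.

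**Figure D3:**
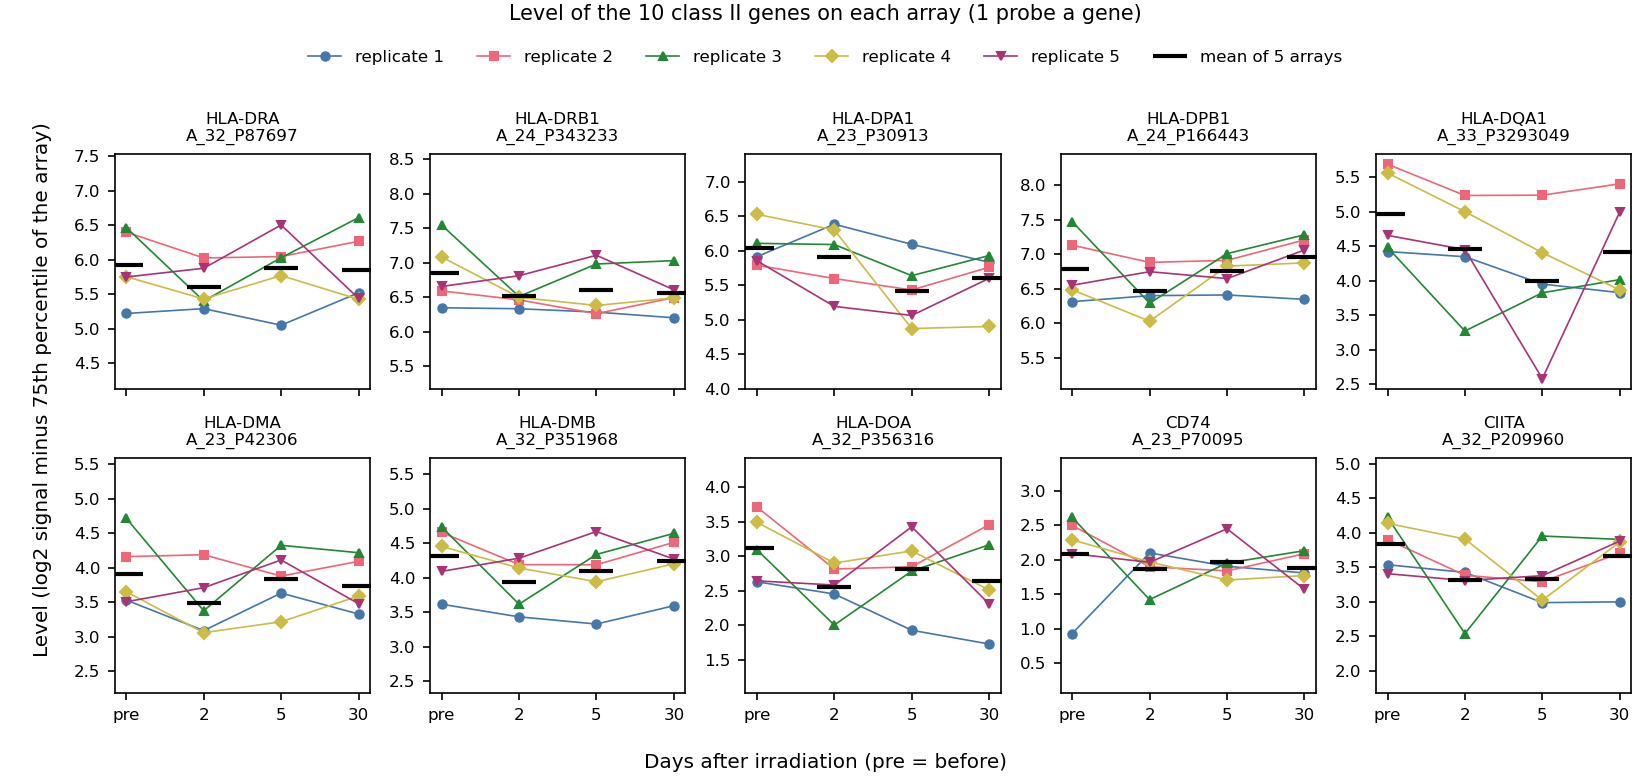
Level (log2 signal minus the 75th percentile of the array, vertical axis, the same height in units for each panel) of 1 probe of each member gene on every array, by day (horizontal axis). Lines join arrays of 1 replicate number and black bars are means of 5 arrays. In HLA-DQA1 the mean is 4.96 before irradiation and 4.00 at day 5, and the arrays of these groups overlap.

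The genes that load and edit peptides followed. HLA-DMA and HLA-DMB, the chains of HLA-DM, had mean changes of -0.43 (SE 0.23) and -0.38 (SE 0.20) at day 2, from A_23_P42306 and A_32_P351968. Levels of HLA-DMA were 3.51 to 4.72 before irradiation and 3.06 to 4.19 at day 2, and those of HLA-DMB were 3.62 to 4.74 and 3.43 to 4.28. The ranges overlapped. At day 30 the changes were -0.17 (SE 0.17) and -0.07 (SE 0.16). This probe of HLA-DMA, A_23_P42306, was lower there in 5 of 5 pairs by 0.03 to 0.50, and the second HLA-DMA probe in 4 of 5. The second HLA-DMA probe varied with the first (correlation of 0.94 over 20 arrays) and had changes of -0.35, 0.00 and -0.13 at days 2, 5 and 30.

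HLA-DOA, the alpha chain of the HLA-DO brake on HLA-DM, is made mainly by B cells. The level of A_32_P356316 (chr6:32971970-32972029, minus strand) was 2.63, 3.71, 3.09, 3.49 and 2.64 before irradiation. It was 2.45, 2.81, 2.00, 2.90 and 2.58 at day 2, lower in each pair, and 1.92, 2.85, 2.78, 3.08 and 3.42 at day 5. At day 30 it was 1.73, 3.46, 3.16, 2.51 and 2.31, and replicate 1 was the lowest array. The mean change was -0.56 (SE 0.19) at day 2, -0.30 (SE 0.25) at day 5 and -0.48 (SE 0.21) at day 30. The adjusted p-values from limma were 0.258, 0.664 and 0.279. The other HLA-DOA probe was well above background on 10 of 20 arrays, and its changes lay between -0.31 and 0.05.

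CD74, the invariant chain, is not on the MHC chromosome (chr5:149792222-149792281, minus strand). Its level was 0.93, 2.50, 2.62, 2.29 and 2.09 before irradiation, 2.10, 1.90, 1.43, 1.97 and 1.97 at day 2, and 1.91, 1.84, 1.95, 1.71 and 2.45 at day 5. At day 30 it was 1.81, 2.09, 2.13, 1.77 and 1.57. The pre-irradiation array of replicate 1 stood below all other arrays, and it also had the smallest share of spots well above background of all arrays (50.9%, the highest being 67.3%). Mean changes of CD74 were -0.21 (SE 0.31), -0.11 (SE 0.27) and -0.21 (SE 0.24) at days 2, 5 and 30. Without replicate 1 they were -0.56, -0.39 and -0.48. The adjusted p-values from limma without it were 0.492, 0.599 and 0.298.

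CIITA, the switch of the whole set, had A_32_P209960 at chr16:11018667-11018726. Its level was 3.53, 3.90, 4.22, 4.13 and 3.40 before irradiation and 3.42, 3.38, 2.54, 3.91 and 3.31 at day 2. It was 2.98, 3.29, 3.95, 3.02 and 3.38 at day 5 and 3.0, 3.70, 3.90, 3.86 and 3.88 at day 30. All pairs were lower at days 2 and 5, by 0.10 to 1.68 and by 0.03 to 1.11, and 4 of 5 at day 30. Mean changes were -0.53 (SE 0.25), -0.51 (SE 0.19) and -0.17 (SE 0.19), with adjusted p-values from limma of 0.373, 0.384 and 0.680. The second probe of CIITA lay between -4.45 and -2.02, near background, with changes of -0.52, -0.07 and -0.42.

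Between the days after irradiation limma called 0 of the 19 members too. It called 0.0501% of all probes between days 30 and 2, and 0% between days 5 and 2 and between days 30 and 5. From day 2 to day 30 the 3 probes in the coding sequence of HLA-DPB1 had changes of 0.48 (SE 0.19), 0.64 (SE 0.23) and 0.86 (SE 0.36), each with an unadjusted p-value under 0.05 beside 5.4% of all probes that were higher at this level. Their adjusted p-values from limma were 0.372, 0.363 and 0.385. Against these 3, a total of 2 members were higher at an unadjusted p-value under 0.05 without the replicate block and 0 without replicates 3, 4 and 5. In these fits 750 of 19961 and 1026 of 19955 probes were higher at this level. One of HLA-DQA1 (A_33_P3273884) had a change of -0.98 (SE 0.35) from day 2 to day 5 and an adjusted p-value of 0.972 from limma, where 1.39% of all probes were lower at an unadjusted p-value under 0.05. A_23_P258769 of HLA-DPB1 had a change of 0.84 (SE 0.29) from day 5 to day 30, where 1.84% of all probes were higher at this level. Its replicate 2 spot was not well above background at day 5, so the size of this change is uncertain. The 3 comparisons with pre-irradiation share its 5 arrays.

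Of the class II genes outside the members, 8 had 12 probes tested. Limma called 0 of them at any day. At day 2 all 12 were below 0, with a median of -0.30. HLA-DOB, the beta chain of HLA-DO, had a mean change of -0.77 (SE 0.22, adjusted p = 0.220 from limma) and was lower in 5 of 5 pairs at days 2 and 5. Its level was 2.97 to 3.71 before irradiation and 1.43 to 3.05 at day 2. At day 5 the median of the 12 was -0.30, and HLA-DQB1 (A_33_P3424217), lower in 5 of 5 pairs, had a mean change of -0.64 (SE 0.17, adjusted p = 0.323 from limma). The other 3 probes of HLA-DQB1 had changes of -0.42, -0.45 and -0.23 there.

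Others of these 12 followed a single array. HLA-DQA2 (A_23_P30900) had a mean change of -1.69 at day 5, to which replicate 4 contributed -5.33. HLA-DRB5 had -0.40 at day 2, to which replicate 3 contributed -2.23. HLA-DRB3, HLA-DRB4, HLA-DQB2 and HLA-DPB2 had changes of -0.03, -0.14, -0.19 and -0.38 at day 2. At day 30 the median of the 12 was again -0.30, with 8 probes below 0, and A_24_P852756 of HLA-DQA2 had the smallest p-value, with a mean change of -0.36 (SE 0.16) and a decrease in 5 of 5 pairs.

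Genes around class II presentation were described by fixed lists, of which limma called no gene at days 2, 5 or 30. The transcription factors that act with CIITA (7 genes, 12 probes) had medians of -0.05, -0.11 and 0.19 at days 2, 5 and 30. RFXAP, a subunit of the factor bound to class II promoters, had a mean change of -0.48 (SE 0.16) at day 2 and -0.31 (SE 0.16) at day 5, and CREB1 had 0.52 (SE 0.18) at day 30. Endosomal proteases and related genes (12 genes, 17 probes) had medians of 0.11, 0.27 and 0.11. CTSB, the protease cathepsin B, had the smallest p-value of this list at each day, with changes of 0.84 (SE 0.20), 0.59 (SE 0.25) and 0.96 (SE 0.24). At day 5 LGMN of the same list had a change of 0.64 (SE 0.27).

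Class I presentation genes (18 genes, 29 probes) lay the other way from class II at day 2, with 25 probes above 0 and a median of 0.30. NLRC5, the class I counterpart of CIITA, had mean changes of 0.57 (SE 0.19) and -0.05 (SE 0.24) for its probes at day 2, and the adjusted p-value of the first was 0.254 from limma. The median of the list was 0.14 and 0.06 at days 5 and 30, where PDIA3 had the smallest p-values with -0.44 (SE 0.16) and -0.35 (SE 0.17). The class II median minus the class I median was -0.59 ± 0.57 at day 2, -0.26 ± 0.48 at day 5 and -0.23 ± 0.39 at day 30 (SD over 5 pairs). In the interferon gamma axis, 9 of 10 probes were above 0 at day 2 with a median of 0.53, and IFNGR2, a receptor chain, had 0.93 (SE 0.23). IFNGR1 had 0.54 (SE 0.23) at day 5 and 0.86 (SE 0.20) at day 30. Costimulation genes and class II receptors (8 probes) had medians of -0.25, -0.17 and 0.14. CD274, an inhibitory ligand, had 1.43 (SE 0.23, adjusted p = 0.131 from limma) at day 2, CD83 had -0.50 (SE 0.18) at day 5 and CD4 had -0.72 (SE 0.20) at day 30.

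**Figure D4:**
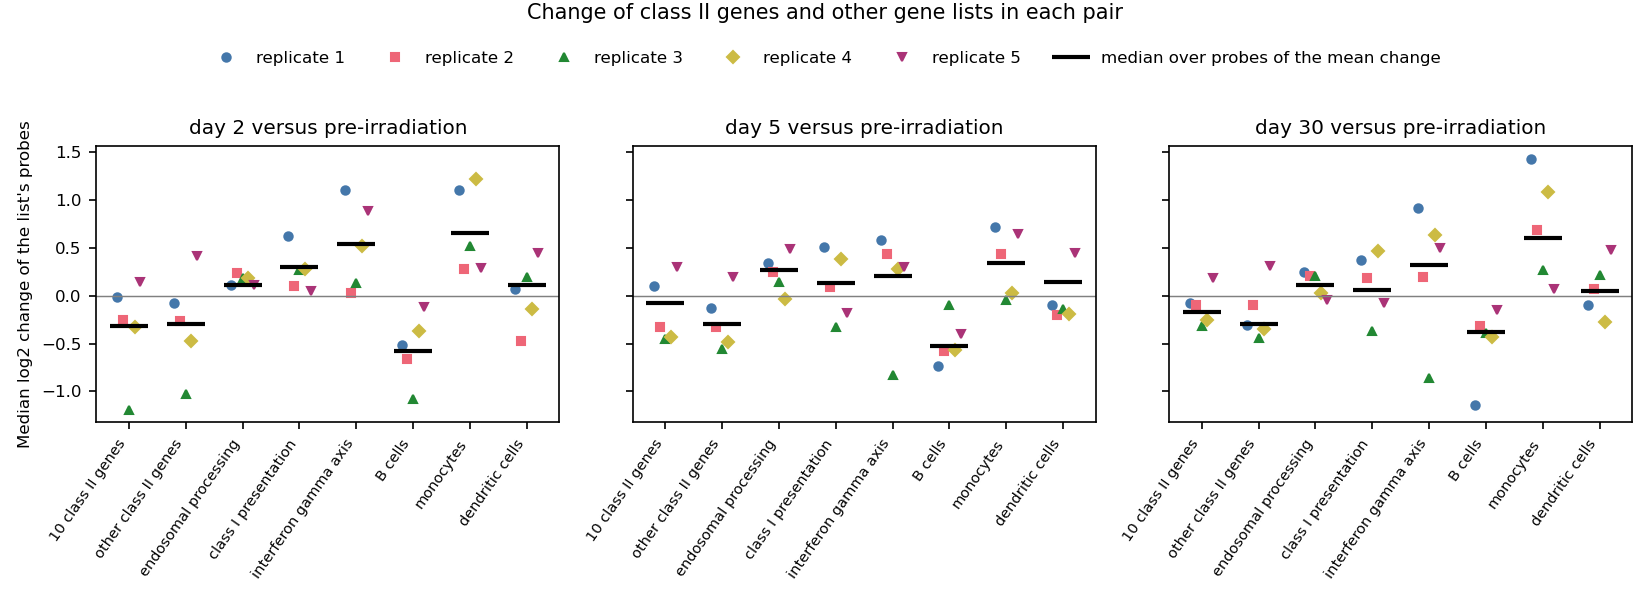
Median log2 change over the probes of each gene list (horizontal axis) in each pair (points) at days 2, 5 and 30 against pre-irradiation (vertical axis), with the median over probes of the mean change (black bars). Class II and B cell medians lie below 0 at all 3 days, and those of monocytes, class I presentation and the interferon gamma axis lie above 0.

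The cells that carry class II were described by their markers on the same arrays. In bulk blood, fewer cells of a type and less RNA per cell cannot be told apart. All 17 B cell probes were below 0 at days 2 and 5 and 15 of 17 at day 30, with medians of -0.58, -0.53 and -0.38. Of these 11, 10 and 6 had an unadjusted p-value under 0.05, all lower, beside 6.55%, 3.82% and 10.1% of all probes. Limma called 0 of them, where it called 12, 0 and 0 of all 19961 probes. CD79A had changes of -0.58, -0.62 and -0.65, whereas MS4A1 was well above background on 2 of 20 arrays and was not tested. The smallest p-values were those of CR2 at day 2 (-0.64, SE 0.17), FCRLA at day 5 (-0.87, SE 0.18) and CD72 at day 30 (-1.34, SE 0.20). The summed level of the B cell list was 6.74 to 7.76 before irradiation, 6.49 to 7.44 at day 2, 6.67 to 7.03 at day 5 and 6.11 to 7.04 at day 30. At day 2 its median in replicate 3 was -1.08, the lowest pair for both class II and B cell genes. The part of B cells in the class II values was not tested.

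Monocyte markers lay on the other side. All 14 probes were above 0 at days 2 and 30 and 13 of 14 at day 5, with medians of 0.65, 0.34 and 0.60. CD14 had changes of 0.58, 0.43 and 0.47 and CSF1R of 0.63, 0.37 and 0.73, while S100A12 had 1.72 (SE 0.41) at day 5 and CD163 had 0.97 (SE 0.24) at day 30. The summed level was 6.73 to 8.19 before irradiation, 7.65 to 8.65 at day 2, 6.76 to 8.34 at day 5 and 7.64 to 8.79 at day 30. Dendritic cell markers (10 probes) had medians of 0.12, 0.14 and 0.05, with 4, 3 and 4 probes below 0 at days 2, 5 and 30. FLT3, well above background on 18 of 20 arrays, had a change of 0.77 (SE 0.33) at day 2, LILRA4 of plasmacytoid cells had 1.27 (SE 0.36) and TCF4 had -0.26 (SE 0.18) at the same day. TCF4 had -0.43 (SE 0.17) at day 5 and ZBTB46 had 0.39 (SE 0.19) at day 30.

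Other blood cells carry little class II. T and NK cell markers (22 probes) had medians of -0.60, -0.31 and -0.32, with 1 probe called at day 2, that of KLRB1, an NK receptor, whose log2 level fell by 1.67 (limma, adjusted p = 0.0965). From day 2 to day 30 KLRB1, the granzyme GZMK and both probes of the NK receptor KLRD1 were called, all higher at day 30, by 2.29, 1.92, 1.47 and 1.43. CD3E had changes of -0.20, -0.13 and -0.64, with PRF1 at -1.04 (SE 0.31) at day 5. Neutrophil medians were 0.81, 0.53 and 0.60, with the smallest p-values for CSF3R, CEACAM8 and CXCR2 at 1.0, 0.96 and 1.11. Platelet medians were 1.45, 0.46 and -0.40, with the smallest p-values for TUBB1, PF4 and CLU at 1.69, 0.61 and -0.53. Erythroid medians were -0.09, 0.14 and -0.90, with the smallest p-values for EPB42, AHSP and SLC4A1 at -0.73, 0.48 and -2.12.

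The members did not all vary together. After centering each probe on its mean within a replicate number, the correlation of a gene with the mean of the other members over 20 arrays was highest for HLA-DRB1 (0.87), HLA-DMB (0.85) and CIITA (0.79), with HLA-DOA at 0.69, HLA-DMA at 0.61, CD74 at 0.60 and HLA-DRA at 0.58. By the 1 probe used for each gene, HLA-DPB1 (0.43), HLA-DQA1 (0.30) and HLA-DPA1 (0.26) followed the rest least. The other probe of HLA-DPA1, A_33_P3234277, had 0.67, so that its place depends on the probe. A_23_P258769 of HLA-DPB1 had -0.31. These arrays share animals and scaling, and no p-value is given.

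Among 15908 genes outside the members, the 10 with the pattern most like the mean of the members included EFR3B (0.89), CD79B (0.86), SLC35A3 (0.81), ZSCAN29 (0.81), ZNF280C (0.79), HS3ST1 (0.79), GGA2 (0.79), IGDCC3 (0.79) and LINC00487 (0.79). CD79B, a chain of the B cell receptor, is the only one of those named that is in a list used here. B cell genes had a median correlation of 0.50 with the members (14 genes, 0.25 to 0.86), the other class II genes 0.59, T and NK cell genes 0.20, dendritic cell genes 0.04, monocyte genes -0.24 and neutrophil genes -0.58. For all genes it was 0.02.

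**Figure D5:**
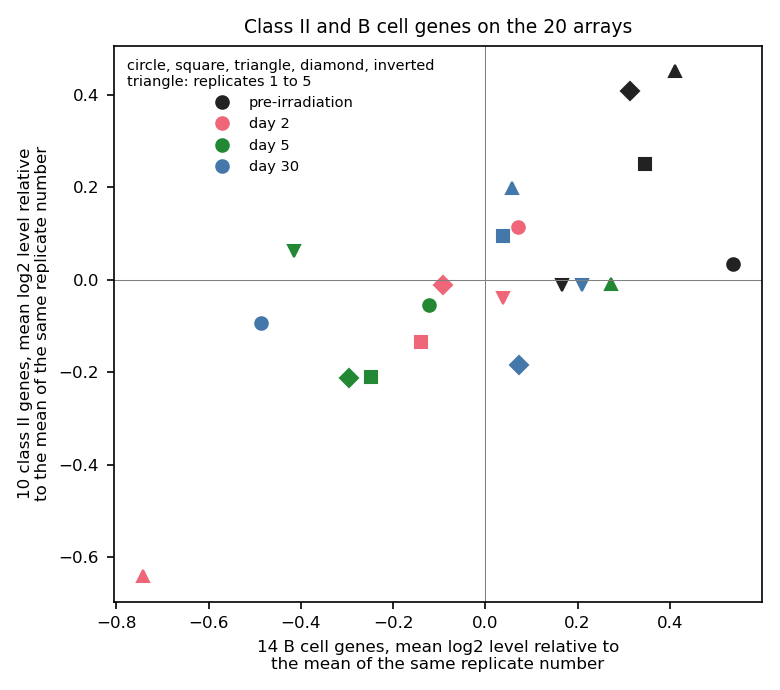
Mean log2 level of 10 class II genes (vertical axis) against that of 14 B cell genes (horizontal axis) on each of 20 arrays, both relative to the mean of the same replicate number, with colors for the groups. The Pearson correlation is 0.73, the day 2 array of replicate 3 lies lowest on both axes.

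The mean class II level and the mean B cell level had a Pearson correlation of 0.73 over the 20 arrays and a Spearman correlation of 0.68, as a description. The arrays farthest from the median B cell level were day 2 of replicate 3 and day 30 of replicate 1, and without both the Pearson correlation was 0.59. For monocyte genes it was -0.50 and, without the 2 arrays farthest from the median, -0.58. The class II median minus the B cell median was 0.22 ± 0.25 at day 2, 0.31 ± 0.48 at day 5 and 0.37 ± 0.40 at day 30, above 0 in 4, 4 and 5 of 5 pairs. This difference was not tested.

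The spread of each probe over the arrays was divided between replicate number and day. Of the sum of squares over 20 arrays, a median of 44.2% lay between replicate numbers and 13.4% between days for the 19 members, beside 31.0% and 17.6% for all probes. The day held the larger share in 4 of the 19, a count that was not made for all probes. These were both probes of CIITA, A_23_P30913 of HLA-DPA1 and A_33_P3271651 of HLA-DPB1. For CIITA the shares between days and between numbers were 27.6% and 15.7% for A_32_P209960 and 16.3% and 5.79% for A_33_P3324394. The latter probe is near background, and its share between days is below the 17.6% of all probes. For HLA-DPA1 the shares were 28.7% and 24.4%, and for HLA-DPB1 27.3% and 21.3%. The shares were not tested. The share between numbers was 78.8% for A_23_P258769 of HLA-DPB1, dim spots included, 65.0% and 56.2% for the probes of HLA-DMA, 63.0% for HLA-DMB and 14.1% for CD74. Among the other class II genes it was 90.7% for A_24_P852756 of HLA-DQA2, whose levels were 4.95, 4.97, 4.37, 2.27 and 2.55 before irradiation and 4.95, 4.38, 4.09, 1.83 and 2.18 at day 2. Replicates 4 and 5 were low for this probe at both times. At day 5 replicate 4 was at 3.49, and at day 30 at 2.08.

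The 5 slides held 1 array of each group, at the same position for all arrays of a group, so that position and group cannot be told apart. Comparing arrays of 1 slide, the median class II difference from pre-irradiation was -0.25 ± 0.26 at day 2 (SD over 5 slides). It was -0.12 ± 0.57 at day 5 and -0.09 ± 0.65 at day 30, and it was below 0 on 4, 3 and 3 slides. Nearly all arrays compared in this way had different replicate numbers, so these differences drop the pairing.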

How the data were processed

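RNA from whole blood was measured on 20 Agilent arrays, 5 a group. The authors deposited each array's Feature Extraction output (version 12.0.2.2 per the file headers, 10.7 per the labels), whose processed intensity has background removed and no scaling across arrays. The authors also deposited log2 values of a subset of probes. On single-spot probes they differed from the logged processed signal by 1 constant an array, within 0.001, and served as an alternative.

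Control spots and spots marked as outliers were left out. The log2 processed intensity was averaged over the spots of a probe and the array's 75th percentile was subtracted. Probes well above background on at least 5 arrays were tested in limma 3.58.1 (R 4.3.3), with the arrays of the 2 groups compared and the replicate number as a block, and called at a p-value under 0.005 and an FDR under 10%, adjusted over all 19961 probes. The genes named are the members, the other class II genes tested, the genes of a list that were called or had its smallest p-value at a day, defining markers of B cells, monocytes, dendritic cells and T cells, and genes most like the members in pattern. The number of arrays limits the precision, and the methods call the replicates biological and the comparisons paired by animal, but the labels tie no array to an animal, so p-values measure the spread between these arrays. Over all probes the deviations of same-numbered arrays correlated by -0.16 to 0.65, so that not every pair was above 0.1. Pattern correlations used 1 probe a gene, chosen by highest mean signal.

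The members and lists were chosen with earlier results of these data known. The fit was tested on simulated data. The alternatives were quantile normalization, median scaling, normexp with an offset of 50, no filter, a filter on all 20 arrays, log2 values as deposited, leaving out the replicate block, 1 fit of all arrays, the slide as a block, each replicate left out, paired tests without pooling over probes, an FDR under 5%, and 1 probe a gene. Added after seeing the data were fits without replicates 3, 4 and 5, the median without variable or dim probes, and calls with no FDR limit. Positions are those of the array annotation on hg19. Python 3.11.15, pandas 2.3.3, numpy 2.4.6 and matplotlib 3.10.9 were used. Some results on single genes are not reported here.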

Additional observations from a re-analysis of the deposited data

Results flagged for a closer look

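Of 76 groups of 5 arrays (19 member probes at 4 times), 7 had an array whose gap to the nearest of the others was a large part of the group's range by Dixon's test, and chance gives about 3.8 in 76. A_33_P3234277 of HLA-DPA1 was at 5.43 before irradiation in replicate 3 (next 4.46) and at 5.64 at day 2 in replicate 1 (next 4.43). A_23_P258769 of HLA-DPB1 was at -5.45 at day 5 and at -3.53 at day 30 in replicate 2, where the next arrays were at 5.59 and 6.27, and the spot at day 5 was not well above background. A_32_P209960 of CIITA was at 3.0 at day 30 in replicate 1 (next 3.70). A_33_P3324394 of CIITA, near background, was at -4.45 at day 2 and at -2.08 at day 5 in replicate 3, next to -3.59 and -3.30. The day 5 array of replicate 3 also had the largest share of spots well above background, 67.3%.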

How the results depend on the processing

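The number of arrays and the differences between replicate numbers limit these results. limma called 0 of the member probes tested in each of 6 comparisons under all 18 alternatives. These included the fit with no replicate block, paired tests without pooling over probes and calls with no FDR limit. Some of the fits called few probes of any gene. Against pre-irradiation, quantile normalization called 0 of 19961 at days 2, 5 and 30. Others called more, such as normexp at day 30 (952 of 19961) and the deposited values at days 2 and 30 (327 and 334 of 5653). Not every alternative tested every member probe. The deposited values hold no probe of HLA-DRB1 or CD74 and lack some probes of HLA-DPB1, HLA-DMA, HLA-DOA and CIITA. The filter on all arrays left out probes of HLA-DPB1, HLA-DOA and CIITA that were dim on some arrays. The stricter FDR limit could not raise a count already at 0. The median change under the alternatives stayed within 1 SD (of the medians by pair) of the main value. This is a wide bound, as the SD of 0.52, 0.34 and 0.19 at days 2, 5 and 30 was larger than the size of the main value. With each replicate left out they lay between -0.44 and -0.13 at day 2, -0.23 and -0.01 at day 5, and -0.16 and -0.12 at day 30. Normexp gave -0.72 at day 2, against -0.31, while the median of all probes was 0.17 with normexp and -0.04 in the main fit.

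The numbers pair the arrays only in part, as described above. Without the replicate block, 1, 1 and 0 members had an unadjusted p-value under 0.05 at days 2, 5 and 30. With it the counts were 2, 4 and 2, and no call of a member changed. Over all 19961 probes, 2191, 858 and 2929 were under this limit without the block, and 2997, 2230 and 3496 with it.

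Of 468 values of single genes, 450 kept their direction and 18 had the other sign. Part of this agreement was fixed in advance. Changing the filter, the block or the test, or fitting all arrays at once, did not alter the values averaged. As the member probes were measured on every array, these alternatives repeat the main mean change. Median scaling gave 0.0065 for HLA-DRA and 0.0057 for HLA-DMB at day 30, and normexp gave 0.016 for HLA-DPB1 at day 5. Without replicates 3, 4 and 5, HLA-DRA at day 30 was 0.083, HLA-DPA1 at day 2 was 0.14, and CD74 was 0.29, 0.16 and 0.23 at days 2, 5 and 30. With 1 replicate left out, HLA-DRA at day 5 lay between -0.24 and 0.062, HLA-DPA1 at day 2 between -0.27 and 0.0079, HLA-DPB1 at day 5 between -0.12 and 0.079, HLA-DMA at day 5 between -0.25 and 0.0088, and CD74 between -0.56 and 0.031 at day 2 and between -0.39 and 0.023 at day 5. The cause was not tested.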
